A study of Mus musculus with 9 samples.

Results

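Cellular iron handling was followed through 10 genes in C2C12 cells, an established mouse myoblast line whose cells divide as muscle precursors. The genes were Tfrc, Slc11a2, Steap3 and Slc39a14 for import, Slc40a1 for export, Fth1, Ftl1 and Ncoa4 for storage, and Aco1 and Ireb2 for control. They were picked by name because Tfrc was low and Slc40a1 high in the treated cells, so levels against Control are described here without a test. All 10 were found among the 53700 gene IDs of the count table, and all 10 were among the 18415 genes with enough counts to be tested.

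RNA was sequenced from 9 libraries, 3 in each of 3 groups, and all cells had first been starved for 12 h in OPTI-MEM, a reduced-serum medium. Val+PA cells were then given the branched-chain amino acid valine at 0.45 mM (24 h) together with palmitic acid, a saturated fat, at 75 µM (12 h). Valine cells had the same concentration of valine, 0.45 mM, over 36 h and no added fat. Control cells were collected at the end of starvation. Each group was a single plate, from which 3 of 6 wells were drawn at random, so the wells of a group share their plate, and a p-value covers only their spread. The treated wells were collected later than Control and none was kept without valine, so valine, time in culture and plate cannot be told apart.

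Cells take up most of their iron by binding transferrin to the transferrin receptor, the product of Tfrc, and carrying it into endosomes. There the iron is reduced by Steap3 and moved to the cytosol by Slc11a2, while Slc39a14 carries iron that is not bound to transferrin. Iron that is not used is stored inside ferritin, a shell of heavy (Fth1) and light (Ftl1) chains, or leaves through ferroportin, the product of Slc40a1. Ncoa4 carries ferritin to the lysosome, where its iron is freed. The iron regulatory proteins, encoded by Aco1 and Ireb2, bind RNA hairpins called iron-responsive elements when iron is scarce. Bound elements in the 3′ UTR protect Tfrc mRNA from decay, and bound elements in the 5′ UTR hold back translation of ferritin and ferroportin mRNA. In muscle, iron is also needed for myoglobin and for the respiratory chain.

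Matches to the hairpin letters are printed because the iron regulatory proteins act on transcripts through sequences of this kind. Transcripts of GENCODE M21 (GRCm38) were searched on the sense strand for a C, any 5 bases, CAGTGN and 5 bases that pair with the first 5. A match is a description of the letters and does not show binding. In the lines that follow, 5′ to 3′, capitals mark the 6 bases of the loop.
Tfrc, 3′ UTR, chr16:32631218-32631247, plus strand: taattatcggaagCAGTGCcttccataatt
Tfrc, 3′ UTR, chr16:32631597-32631626, plus strand: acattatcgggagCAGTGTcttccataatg
Tfrc, 3′ UTR, chr16:32631662-32631691, plus strand: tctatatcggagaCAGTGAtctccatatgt
Tfrc, 3′ UTR, chr16:32631709-32631738, plus strand: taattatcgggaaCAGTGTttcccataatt
Slc40a1, 5′ UTR, chr1:45925465-45925494, minus strand: ccaacttcagctaCAGTGTtagctaagttt
Fth1, 5′ UTR, chr19:9982731-9982760, plus strand: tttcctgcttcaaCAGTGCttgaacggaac
Ftl1, 5′ UTR, chr7:45459779-45459808, minus strand: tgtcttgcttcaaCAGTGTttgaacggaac

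Tfrc held 4 matches, all in its 3′ UTR, and Slc40a1, Fth1 and Ftl1 held 1 match each, all in the 5′ UTR. Steap3, Slc11a2, Slc39a14, Ncoa4, Aco1 and Ireb2 held no match to these letters. Of 21901 protein-coding genes, 1.34% held a match anywhere in a transcript, 0.142% in a 5′ UTR and 0.589% in a 3′ UTR. The 4 genes with a match did not share a direction: the mRNA of Slc40a1 was higher in treated cells, and the mRNAs of Tfrc, Fth1 and Ftl1 were lower.

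**Figure D1:**
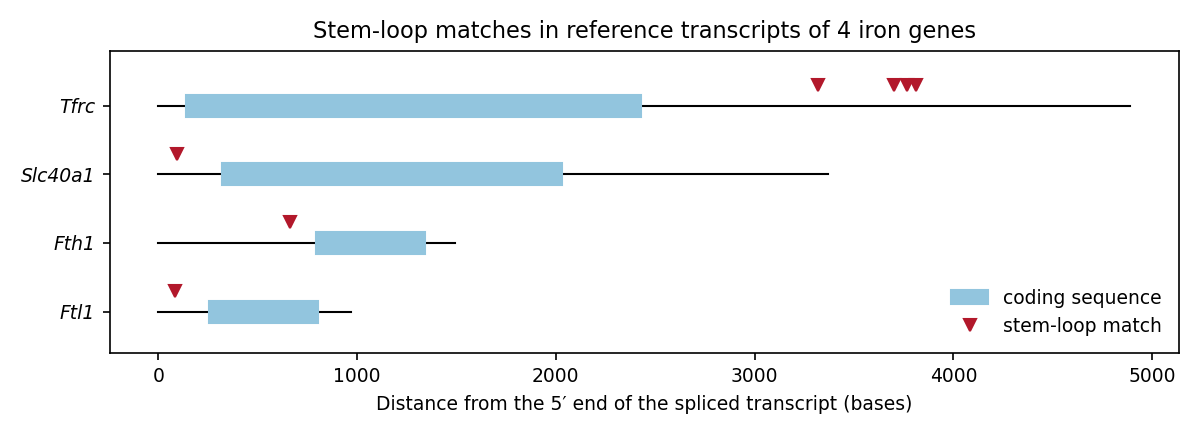
Transcripts of Tfrc, Slc40a1, Fth1 and Ftl1 drawn to scale, with the position in bases from the transcript start on the horizontal axis, the coding part as a thick bar and each match to the hairpin letters as a mark. The 4 marks of Tfrc lie after its coding part, and the single marks of Slc40a1, Fth1 and Ftl1 lie before theirs.

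Library totals ran from 26750226 to 35976589 counts, and levels are given in CPM, counts scaled to a library's effective size, so that a single count equals 0.0271 to 0.0403 CPM. On the second principal component (16.7% of variance) Val+PA 2, at −46.3, and Control 3, at −21.9, stood apart from the other 7 libraries, which lay between −8.999 and 17.6. Summed over 7 myoblast markers, the level was 3290 to 5265 CPM in Val+PA, 3427 to 3625 CPM in Valine and 2145 to 2462 CPM in Control, with no marker at 0. Summed over 5 fibroblast markers, it was 1638 to 2519 CPM in Val+PA, 1871 to 1905 CPM in Valine and 807 to 1254 CPM in Control, again with none at 0. Both marker sums were higher in all treated libraries, and their part in the results that follow was not tested. The myoblast markers did not all move together. Des averaged 2400 CPM in Val+PA, 1947 CPM in Valine and 1233 CPM in Control, and Itga7, Myf5, Myod1 and Pax7 were also higher on average in both treated groups. Cdh15 averaged 149 CPM in Val+PA, 162 CPM in Valine and 176 CPM in Control, and Vcam1 was also lower on average in both. In bulk RNA, fewer cells of a type and less RNA per cell cannot be told apart.

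Macrophages and red cell precursors also handle much iron, so their markers were checked. Over 8 macrophage and white cell markers the sum was 6.79 to 9.04 CPM in Val+PA, 7.42 to 8.17 CPM in Valine and 3.75 to 5.65 CPM in Control. Itgam had no count in any library, Adgre1 had none in Valine or Control, and Vsig4 had none in Val+PA or Control. Over 6 erythroid markers the sum was 11.9 to 14.7 CPM in Val+PA, 8.66 to 10.2 CPM in Valine and 6.53 to 8.54 CPM in Control, with Gata1 at 0 in Control. Over 4 hepatocyte markers the sum was 1.98 to 2.21 CPM in Val+PA, 1.70 to 2.74 CPM in Valine and 1.81 to 2.16 CPM in Control, with Hamp at 0 in Val+PA. Over 5 adipocyte markers, with Adipoq and Lep at 0 throughout, the sum was 0 to 0.163 CPM in Val+PA, 0.0581 to 0.245 CPM in Valine and 0 to 0.121 CPM in Control. The macrophage and erythroid sums were higher in every treated library than in every Control library, but their markers did not move together. Cd68 averaged 5.75 CPM in Val+PA, 5.11 CPM in Valine and 1.77 CPM in Control, whereas Csf1r averaged 0.229 CPM in Val+PA, 0.218 CPM in Valine and 0.77 CPM in Control. Epor averaged 9.11 CPM in Val+PA, 7.05 CPM in Valine and 2.35 CPM in Control, whereas Hba-a1 averaged 3.34 CPM in Val+PA, 2.24 CPM in Valine and 5.28 CPM in Control.

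Tfrc had the largest difference of the 10 genes: its mRNA was low in every treated library. Its level was 23.2, 16.8 and 20.7 CPM in Val+PA, 21.1, 25.4 and 25.3 CPM in Valine, and 270.2, 353 and 405 CPM in Control. The lowest Control library was more than 10 times the highest treated library, and the treated groups overlapped each other. The gene (ENSMUSG00000022797) lies at chromosome 16, 32608920 to 32632794, plus strand. Against Control, the log2 fold change was −4.08 (SE 0.18) in Val+PA and −3.84 (SE 0.18) in Valine, the second being a level 14.3-fold lower.

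The remaining import genes were lower in Valine than in Control by far smaller amounts. Slc39a14 (ENSMUSG00000022094, chromosome 14, 70303469 to 70351425, minus strand) had 49.3, 58.1 and 49.8 CPM in Val+PA, 42.1, 44.3 and 46.7 CPM in Valine, and 73.9, 77.9 and 89.8 CPM in Control. Every treated library was under every Control library, and every Valine library was under every Val+PA library. Its log2 fold change against Control was −0.62 in Val+PA and −0.86 (SE 0.11) in Valine.

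Steap3 (ENSMUSG00000026389, chromosome 1, 120190757 to 120272705, minus strand) separated Valine from both other groups. It had 45.8, 60.2 and 47.2 CPM in Val+PA, 39.7, 36.4 and 37.4 CPM in Valine, and 54.2, 51.0 and 64.0 CPM in Control. The Valine libraries were the lowest, while Val+PA 2 lay among the Control libraries and the other Val+PA libraries lay below them. Against Control, the log2 fold change was −0.14 in Val+PA and −0.58 (SE 0.13) in Valine.

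Slc11a2 (ENSMUSG00000023030, chromosome 15, 100387898 to 100425072, minus strand) averaged 49.1 ± 3.10 CPM in Val+PA, 42.9 ± 2.95 CPM in Valine and 58.1 ± 6.93 CPM in Control (SD, n = 3 each). All treated libraries were under all Control libraries, with log2 fold changes of −0.24 in Val+PA and −0.44 (SE 0.11) in Valine. The predicted gene Gm5475 overlaps it on the other strand and had 189 counts over all libraries, against 14532 for Slc11a2.

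The export gene went the other way from the import genes. Slc40a1 (ENSMUSG00000025993, chromosome 1, 45908068 to 45926523, minus strand) had 86.2, 87.0 and 94.5 CPM in Val+PA, 83.7, 78.5 and 75.8 CPM in Valine, and 14.01, 12.2 and 13.5 CPM in Control. The treated libraries stood well above Control, and each Val+PA library was above each Valine library. The macrophage marker sum was also higher in treated cells, at 6.79 to 9.04 CPM in Val+PA and 7.42 to 8.17 CPM in Valine, against 3.75 to 5.65 CPM in Control, and its part in the level of Slc40a1 was not tested. Within that sum Cd68 averaged 5.75 CPM in Val+PA, 5.11 CPM in Valine and 1.77 CPM in Control. The other markers averaged at most 1.52 CPM in any group, with Csf1r lower in treated cells and Itgam without a count. Against Control, the level was 6.75-fold higher in Val+PA (log2 fold change 2.75, SE 0.11) and 6.00-fold higher in Valine (log2 fold change 2.58, SE 0.11).

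Both ferritin chains, the storage proteins, had less mRNA in treated cells. Fth1 (ENSMUSG00000024661, chromosome 19, 9980598 to 9985098, plus strand) had 180.3, 185 and 188 CPM in Val+PA, 194, 181 and 173 CPM in Valine, and 352, 269.9 and 339 CPM in Control. The treated groups overlapped each other and lay under every Control library. Its log2 fold change against Control was −0.80 in Val+PA and −0.81 (SE 0.11) in Valine.

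Ftl1 (ENSMUSG00000050708, chromosome 7, 45457944 to 45459884, minus strand) had 1249.5, 1829 and 1336 CPM in Val+PA, 1115, 1111 and 1094 CPM in Valine, and 2421, 2200.2 and 2275 CPM in Control. The groups did not overlap: Control was highest, Valine lowest and Val+PA in between, with Val+PA 2 well above the other libraries of its group. Against Control, the log2 fold change was −0.64 (SE 0.13) in Val+PA and −1.05 (SE 0.13) in Valine. Without Val+PA 2, the value for Val+PA against Control was −0.83 (SE 0.07).

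Reads of the light chain can be shared with processed copies of the gene. Over all libraries the copies Ftl1-ps1 and Ftl2-ps had 9082 and 7922 counts, or 1.94% and 1.70% of the 467370 counts of Ftl1. Ftl1-ps1 averaged 29.2 CPM in Val+PA, 20.8 CPM in Valine and 44.4 CPM in Control. Ftl2-ps averaged 25.4 CPM in Val+PA, 16.04 CPM in Valine and 41.7 CPM in Control. Their groups stood in the same order as those of Ftl1, and adding the counts of the copies to Ftl1 gave 1302 to 1895 CPM in Val+PA, 1130.2 to 1152 CPM in Valine and 2281 to 2514 CPM in Control. The copy of the heavy chain, Fth-ps2, had 103 counts, or 0.156% of those of Fth1, and Ftl1-ps2 had 36 counts.

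Ncoa4 (ENSMUSG00000056234, chromosome 14, 32159865 to 32179855, plus strand), which delivers ferritin for breakdown, had the smallest difference in Valine of the 10 genes. It had 192, 157 and 187 CPM in Val+PA, 183.6, 184.3 and 182.6 CPM in Valine, and 199.5, 205 and 199.4 CPM in Control. All treated libraries were below Control, and Val+PA 2 was the lowest of them. The log2 fold change against Control was −0.17 in Val+PA and −0.13 (SE 0.10) in Valine.

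The genes of the iron regulatory proteins stood on opposite sides of Control. Aco1 (ENSMUSG00000028405, chromosome 4, 40143081 to 40198338, plus strand) had 86.2, 92.7 and 90.4 CPM in Val+PA, 86.9, 89.3 and 86.7 CPM in Valine, and 126, 124 and 123 CPM in Control. Treated libraries were all under Control and overlapped each other. Its log2 fold change against Control was −0.47 in Val+PA and −0.51 (SE 0.09) in Valine.

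Ireb2 (ENSMUSG00000032293, chromosome 9, 54863789 to 54912530, plus strand) had 243, 181 and 277 CPM in Val+PA, 260.1, 242 and 256 CPM in Valine, and 185, 204 and 197 CPM in Control. All Valine libraries were above Control, and Val+PA 2 was below it while the other Val+PA libraries were above. The log2 fold change against Control was 0.26 in Val+PA and 0.37 (SE 0.14) in Valine, and without Val+PA 2 it was 0.41 (SE 0.08) in Val+PA. The product of Ireb2 is regulated mainly through breakdown of the protein, which RNA does not show.

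**Figure D2:**
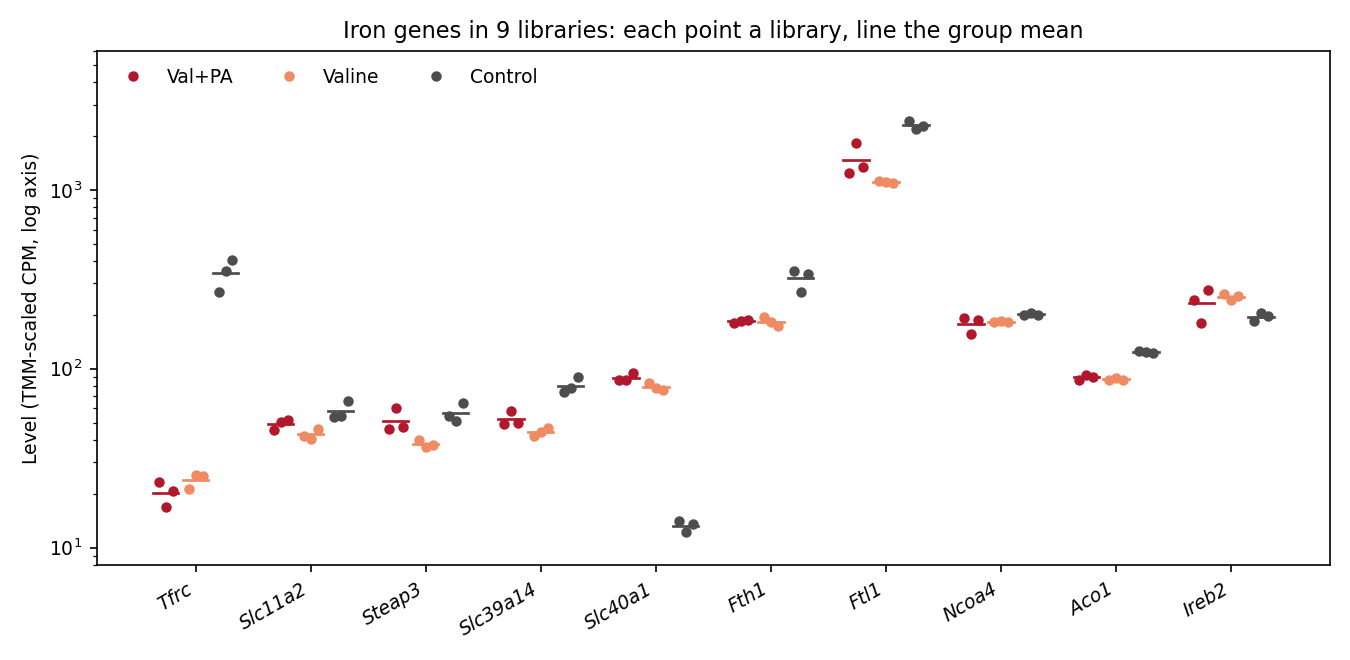
Levels of the 10 iron genes in CPM on a log axis, 1 point per library and a line at the group mean, with Val+PA, Valine and Control in that order. Tfrc sits at 16.8 to 25.4 CPM in the treated libraries and at 270.2 to 405 CPM in Control, and Slc40a1 at 75.8 to 94.5 CPM in the treated libraries and at 12.2 to 14.01 CPM in Control.

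Against the 5% threshold on adjusted p in edgeR's quasi-likelihood fit, 9 of the 10 genes passed between Valine and Control, 2 higher and 7 lower, where 41.9% of all tested genes passed (20.8% higher and 21.1% lower). Between Val+PA and Control, 6 passed, 1 higher and 5 lower, where 39.2% of all tested genes passed (20.4% higher and 18.8% lower). Groups did not overlap between Valine and Control for all 10 genes, 2 higher and 8 lower, where this held for 59.0% of all tested genes (29.7% higher and 29.2% lower). Between Val+PA and Control they did not overlap for 8 genes, 1 higher and 7 lower, where this held for 45.5% of all tested genes (23.5% higher and 22.1% lower). The genes were chosen on comparisons with Control, which share the Control libraries, so nothing is read from these counts. The median log2 fold change of the 10 genes was −0.36 in Val+PA and −0.54 in Valine, where the medians of all tested genes were −0.00181 and −0.00493.

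Levels of different genes were compared per kilobase of exon, counting all annotated exons of a gene. That length was 9000 bases for Slc40a1 and 3469 for Fth1, where their transcripts drawn with the hairpin matches had 3370 and 1494. The order of genes within a group therefore depends on the length used, and other lengths were not tried. In CPM per kilobase, Ftl1 was first and Fth1 the second of the 10 genes in every group, at 1098 and 53.1 in Val+PA, 826 and 52.7 in Valine, and 1715 and 92.3 in Control. Tfrc was last in both treated groups and the third in Control, with 3.27 ± 0.524 in Val+PA, 3.87 ± 0.392 in Valine and 55.4 ± 10.99 in Control (SD, n = 3 each). Slc40a1 was last in Control and the sixth in both treated groups, with 9.92 ± 0.51 in Val+PA, 8.81 ± 0.442 in Valine and 1.47 ± 0.107 in Control. Tfrc and Slc40a1 thus exchanged places at the foot of the order. Close neighbours in it did not stand apart: in Val+PA, Aco1 (19.97 ± 0.734) and Ncoa4 (19.1 ± 2.04) differed by less than the SD of Ncoa4, though by more than that of Aco1.

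Tfrc mRNA outweighed Slc40a1 mRNA in Control and not in the treated groups. The ratio of Tfrc to Slc40a1, in CPM within a library, averaged 0.227 ± 0.0388 in Val+PA, 0.303 ± 0.044 in Valine and 26.1 ± 5.91 in Control (SD, n = 3 each). The ratio of Fth1 to Tfrc per kilobase averaged 16.6 ± 2.903 in Val+PA, 13.8 ± 2.28 in Valine and 1.73 ± 0.519 in Control. Although ferritin mRNA was lower in treated cells, it therefore outnumbered receptor mRNA by more than in Control. The proportion of heavy to light chain mRNA differed less between groups. The ratio of Fth1 to Ftl1 per kilobase averaged 0.0497 ± 0.00929 in Val+PA, 0.0637 ± 0.00323 in Valine and 0.0537 ± 0.0055 in Control. It was higher in every Valine library than in any library of the other groups. The ratio of Aco1 to Ireb2 per kilobase averaged 0.839 ± 0.212 in Val+PA, 0.732 ± 0.0402 in Valine and 1.34 ± 0.0786 in Control. These ratios restate the levels above and were not tested, and the size of those per kilobase depends on the exon length used.

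**Figure D3:**
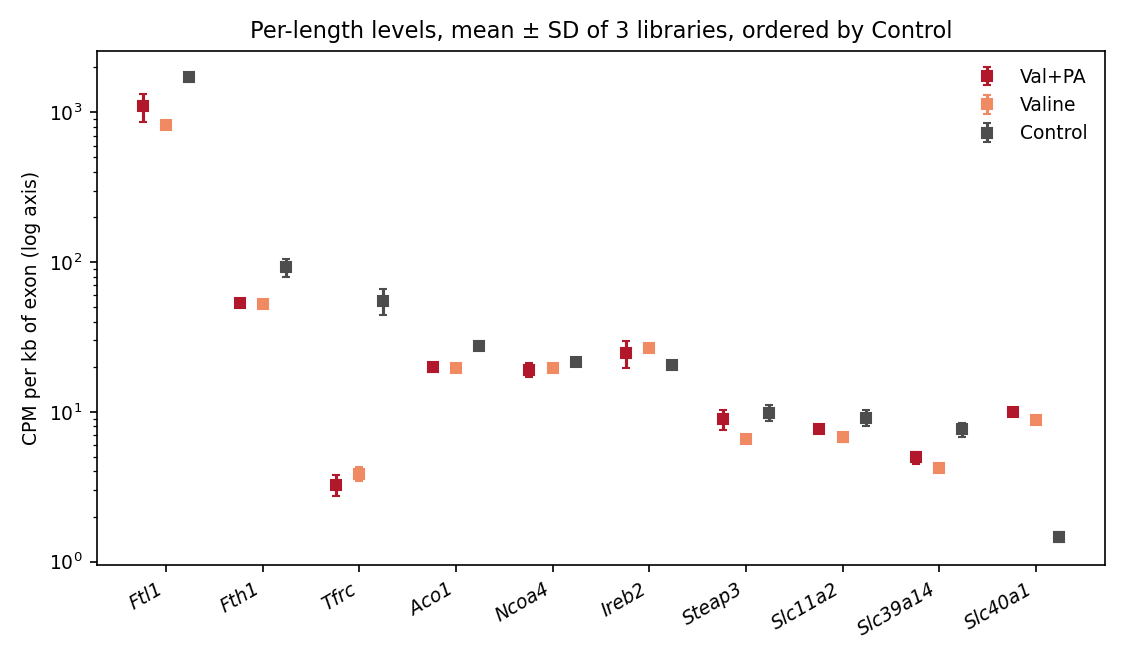
Mean level of each of the 10 iron genes in CPM per kilobase of exon, on a log axis, in Val+PA, Valine and Control, with bars for the SD of 3 libraries. Ftl1 is highest in each group, at 1098, 826 and 1715, and Tfrc and Slc40a1 exchange the lowest place between the treated groups and Control.

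Val+PA was tested against Valine, a comparison the choice of genes did not use. Both groups had valine, and they differ in the length of valine treatment, in palmitic acid and in plate. These differences cannot be told apart, so the comparison does not test palmitic acid alone. None of the 10 genes passed the 5% threshold on adjusted p in edgeR's quasi-likelihood test, nor did any of the 18415 genes (0%). At an unadjusted p below 0.05 there were 2 of the 10, Steap3 and Ftl1, and 13.2% of all tested genes. DESeq2 called none of the 10 and 212 of all genes, and limma-voom called none of either.

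Steap3 and Ftl1 had the largest estimates and were both higher in Val+PA. Steap3 differed by 0.43 on the log2 scale (95% interval 0.15 to 0.72) with an edgeR adjusted p of 0.293. Ftl1 differed by 0.41 (95% interval 0.13 to 0.69) with an edgeR adjusted p of 0.313. Without Val+PA 2 the values were 0.30 for Steap3 (edgeR adjusted p = 0.503) and 0.22 for Ftl1 (edgeR adjusted p = 0.449). When Control 3, which shares the estimate of spread, was left out as well, they were 0.29 (edgeR adjusted p = 0.0328) and 0.22 (edgeR adjusted p = 0.039). Steap3 was called only in that setting. Ftl1 was also called with all 9 libraries when the filter was left out, at 0.41 (edgeR adjusted p = 0.0244).

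Slc39a14 and Slc40a1 were also higher in every Val+PA library than in every Valine library. For Slc39a14 the difference was 0.24 (SE 0.11) with an edgeR adjusted p of 0.382, and for Slc40a1 it was 0.17 (95% interval −0.04 to 0.38) with an edgeR adjusted p of 0.442. That makes 4 of the 10 genes with groups that did not overlap, all higher in Val+PA, where 24.6% of all tested genes did not overlap (12.6% higher and 12.0% lower). Tfrc differed by −0.24 (95% interval −0.59 to 0.11) with an edgeR adjusted p of 0.489. Fth1 differed by 0.01 (95% interval −0.23 to 0.25) with an edgeR adjusted p of 0.966. For the other 4 genes the estimates were 0.19 for Slc11a2, 0.04 for Aco1, −0.04 for Ncoa4 and −0.11 for Ireb2, all with an edgeR adjusted p above that threshold. The interval of Fth1 leaves out a difference of the size seen between either treated group and Control. Those of Steap3 and Ftl1 leave out zero, though neither held after adjustment over all genes.

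**Figure D4:**
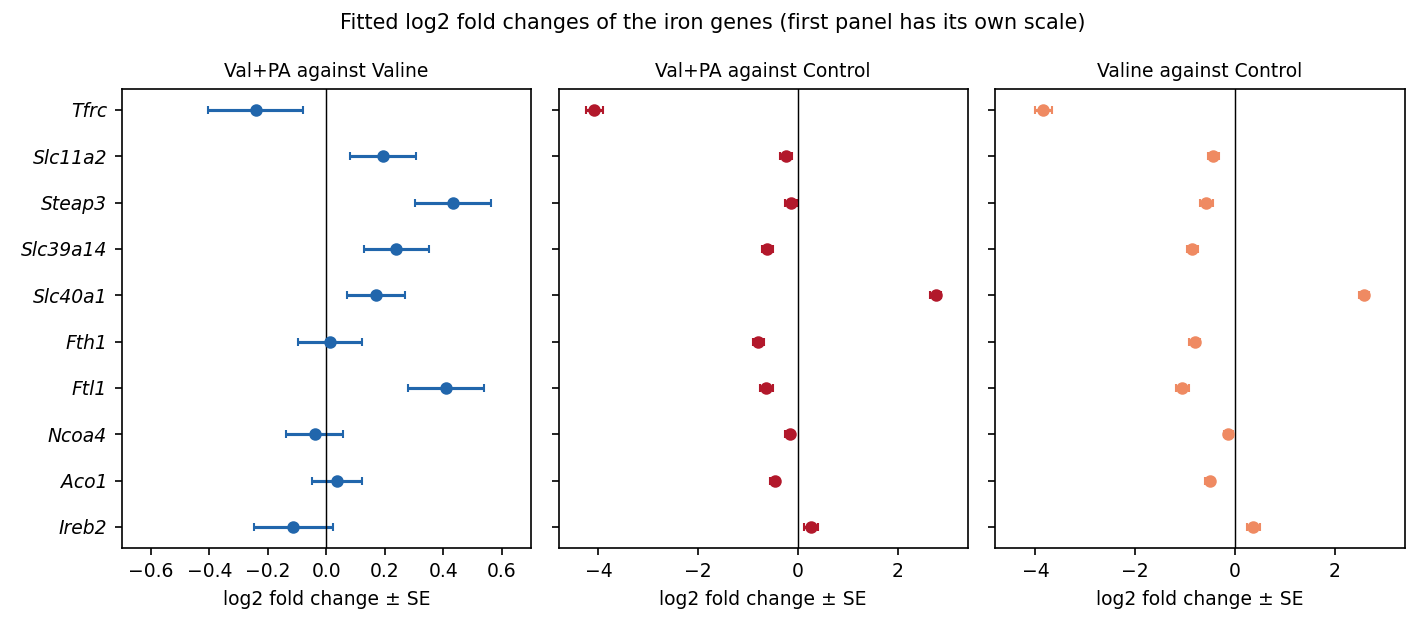
Log2 fold changes of the 10 iron genes, with bars for the SE. The panels show Val+PA against Valine, Val+PA against Control and Valine against Control. The first panel has its own axis, which spans a narrower range than that of the others. Points right of 0 are higher in the group named first. Tfrc lies at −4.08 and −3.84 and Slc40a1 at 2.75 and 2.58 against Control, while all 10 genes lie between −0.24 and 0.43 in Val+PA against Valine.

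Genes with the pattern most like Tfrc and Slc40a1 were found by the Euclidean distance between log2 CPM values centred over the 9 libraries, among 8813 genes with a mean of at least 10 CPM. Nearest to Tfrc were Cdc6 (distance 1.45), Tinagl1 (1.52), Ccne2 (1.55), Prl2c3 (1.59) and Dna2 (1.72), where the median distance was 5.55. Cdc6 averaged 6.79 CPM in Val+PA, 8.21 CPM in Valine and 61.5 CPM in Control. Cdc6, Ccne2 and Dna2 encode proteins of DNA replication or of entry into it. Prl2c3 belongs to a family of near-identical genes, so its reads may be shared.

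Nearest to Slc40a1 were Cpq (distance 0.35), Tcp11l2 (0.37), Epha1 (0.47), Ypel3 (0.47) and Ip6k3 (0.49), where the median distance was 3.82. Cpq averaged 141 CPM in Val+PA, 141 CPM in Valine and 21.7 CPM in Control. Tcp11l2 averaged 49.3 CPM in Val+PA, 47.9 CPM in Valine and 8.13 CPM in Control. These distances describe patterns over 9 libraries dominated by the gap between treated and Control cells.

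Around the 10 genes, 115 further genes in 11 lists were examined, of which 107 were tested. Between Valine and Control, 21 were higher and 38 lower at an edgeR adjusted p below 0.05, with a median log2 fold change of −0.10. Between Val+PA and Control, 20 were higher and 32 lower, with a median of −0.01. Against the 41.9% and 39.2% of all tested genes that passed in Valine and in Val+PA, these are 59 and 52 of 107. Between Val+PA and Valine none passed. There, 20 of 107 had an unadjusted p below 0.05 in edgeR, where 13.2% of all tested genes did. Of those 20, 8 were among the 10 proliferation genes, whose median log2 fold change was −0.36. Nothing particular to the lists is read from these counts.

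Among further iron uptake genes, apart from Tfrc, Slc11a2, Steap3 and Slc39a14, none passed as lower against Control. Of 9 tested, 4 rose and none fell in Valine, and 4 rose and none fell in Val+PA. Those 4 were Tfr2, the second transferrin receptor, Steap4, a ferrireductase, Slc22a17, a receptor for lipocalin, and Scara5, a ferritin receptor. All but Scara5 were near the floor. Tfr2 averaged 1.01 CPM in Valine and 0.225 CPM in Control, and Slc22a17 averaged 0.822 and 0.382 CPM. Steap4 averaged 0.255 CPM in Valine and 0.0321 CPM in Control, with 58 counts over all libraries. Scara5 rose most, averaging 16.8 ± 2.87 CPM in Val+PA, 18.8 ± 0.812 CPM in Valine and 1.02 ± 0.2 CPM in Control (SD, n = 3 each). Its log2 fold change was 4.06 (edgeR adjusted p = 8.22e-08) in Val+PA and 4.22 (edgeR adjusted p = 6.32e-08) in Valine.

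Alongside Slc40a1, the ferroxidases and export partners changed in both directions, with 1 of 6 rising and 1 falling against Control in each treated group. Ceruloplasmin (Cp), which oxidises iron as ferroportin releases it, averaged 215 ± 43.6 CPM in Val+PA, 258 ± 9.82 CPM in Valine and 77.0 ± 16.7 CPM in Control, with log2 fold changes of 1.48 in Val+PA (edgeR adjusted p = 3.98e-05) and 1.75 in Valine (edgeR adjusted p = 1.13e-05). Flvcr1, a heme exporter, averaged 14.4 ± 2.40 CPM in Val+PA, 14.6 ± 0.224 CPM in Valine and 31.6 ± 1.51 CPM in Control, with log2 fold changes of −1.13 in Val+PA (edgeR adjusted p = 3.32e-05) and −1.12 in Valine (edgeR adjusted p = 3.51e-05). The exporter and Cp were thus high in the same groups.

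Iron chaperones and genes of ferritin turnover changed in both directions. Of 6 tested, 2 rose and 1 fell in Valine, and 1 rose and 1 fell in Val+PA. Fbxl5, the iron-sensing ligase subunit that targets the product of Ireb2 for breakdown, rose in both. The iron chaperone Pcbp1 fell, with log2 fold changes of −0.64 in Val+PA (edgeR adjusted p = 0.00447) and −0.45 in Valine (edgeR adjusted p = 0.0263). The call for Valine was lost without any one of Control 1, Control 2 and the 3 Valine libraries, with an adjusted p of 0.06 to 0.107. Tax1bp1, a cargo receptor that works with Ncoa4, had a log2 fold change of 0.36 in Val+PA (edgeR adjusted p = 0.214) and rose by 0.64 in Valine (edgeR adjusted p = 0.0323), a call that was lost without Control 3 or any Valine library.

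Mitochondrial iron and iron-sulfur cluster genes counted more falls than rises. Of 30 tested, 2 rose and 12 fell in Valine, and 3 rose and 7 fell in Val+PA. Of all tested genes, 20.8% rose and 21.1% fell in Valine, and 20.4% rose and 18.8% fell in Val+PA. The median log2 fold change of the list was −0.16 in Valine and −0.05 in Val+PA. The cochaperone Hscb rose, averaging 5.75 ± 0.4 CPM in Val+PA, 5.95 ± 1.05 CPM in Valine and 2.53 ± 0.434 CPM in Control. Of 14 heme genes, 1 rose and 6 fell in Valine, and 3 rose and 6 fell in Val+PA. Heme oxygenase Hmox1, which frees iron from heme, fell, with log2 fold changes of −0.74 in Val+PA (edgeR adjusted p = 0.00239) and −0.90 in Valine (edgeR adjusted p = 0.000631). Cpox, an enzyme of heme synthesis, rose on the log2 scale by 0.54 in Val+PA (edgeR adjusted p = 0.00297) and by 0.39 in Valine (edgeR adjusted p = 0.0182), the second call being lost without Control 1, Control 2, Valine 2 or Valine 3.

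Every tested gene of the hepcidin and BMP list, which holds the iron-sensing genes known best from liver, changed in Valine, with 4 higher and 4 lower; in Val+PA, 4 of the 8 rose and 3 fell. Hfe2 (hemojuvelin), a BMP coreceptor also made in muscle, rose most, averaging 12.5 ± 2.26 CPM in Val+PA, 13.1 ± 0.202 CPM in Valine and 1.44 ± 0.204 CPM in Control. Its log2 fold change was 3.12 (edgeR adjusted p = 2.29e-07) in Val+PA and 3.18 (edgeR adjusted p = 1.72e-07) in Valine. Smad6, an inhibitor of the pathway, fell, with log2 fold changes of −1.11 in Val+PA (edgeR adjusted p = 0.00472) and −1.32 in Valine (edgeR adjusted p = 0.00163).

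Genes that bear on Tfrc itself were listed apart. Among RNA-binding proteins that act on the decay of mRNAs such as that of Tfrc, 1 of 6 rose and 2 fell against Control in each treated group. Zfp36l1 rose on the log2 scale by 1.29 in Val+PA (edgeR adjusted p = 3.85e-05) and by 1.53 in Valine (edgeR adjusted p = 9.64e-06). Zfp36l2, of the same family, fell, with log2 fold changes of −0.94 in Val+PA (edgeR adjusted p = 0.000106) and −1.18 in Valine (edgeR adjusted p = 1.86e-05). Among 9 genes of receptor trafficking, none rose and 2 fell in Val+PA, and 1 rose and 2 fell in Valine. The retromer subunit Vps35 averaged 406 ± 60.4 CPM in Val+PA, 411 ± 3.21 CPM in Valine and 601 ± 40.5 CPM in Control, with log2 fold changes of −0.57 in Val+PA (edgeR adjusted p = 0.00203) and −0.55 in Valine (edgeR adjusted p = 0.00238). Rab12, which directs the receptor to lysosomes, had a log2 fold change of 0.28 in Val+PA (edgeR adjusted p = 0.252) and rose by 0.54 in Valine (edgeR adjusted p = 0.0322), a call lost without Control 3 or any Valine library.

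Of 5 transcription factors of iron genes, 1 rose in Val+PA and 3 rose in Valine, and none fell. Mitf was the one that rose in both, on the log2 scale by 0.57 in Val+PA (edgeR adjusted p = 0.0122) and by 0.67 in Valine (edgeR adjusted p = 0.00472). Of 4 further transcripts reported to hold such an element, Cdc42bpa and Pfn2 rose in both treated groups and none fell, though neither held a match to the letters searched here. Pfn2, which encodes an actin-binding protein, rose on the log2 scale by 0.45 in Val+PA (edgeR adjusted p = 0.0318) and by 0.73 in Valine (edgeR adjusted p = 0.00225).

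Apart from the 10 iron genes, 28 genes, some of them in the lists above, had a match to the hairpin letters in a 5′ UTR, of which 24 were tested, with 4 higher and 7 lower in Val+PA and 3 higher and 5 lower in Valine against Control. A match in a 3′ UTR was found in 128 genes other than Tfrc, again with some overlap with the lists, of which 96 were tested, with 23 higher and 25 lower in Val+PA and 27 higher and 28 lower in Valine. None passed between Val+PA and Valine. This count was added after the values had been seen. The genes with a match in a 5′ UTR include Ftl1-ps1, whose reads can be shared with Ftl1. Of all tested genes, 39.2% passed in Val+PA (20.4% higher and 18.8% lower) and 41.9% in Valine (20.8% higher and 21.1% lower). Nothing particular to the letters is therefore read from these counts.

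Dividing cells need iron and carry much transferrin receptor, so proliferation genes were read beside Tfrc. All 10 were lower against Control in both treated groups, with a median log2 fold change of −1.39 in Val+PA and −0.96 in Valine. Mcm5, a subunit of the replicative helicase, averaged 34.6 ± 5.51 CPM in Val+PA, 43.9 ± 6.87 CPM in Valine and 172 ± 19.3 CPM in Control, with log2 fold changes of −2.31 in Val+PA (edgeR adjusted p = 5.17e-07) and −1.97 in Valine (edgeR adjusted p = 1.57e-06). They moved with Tfrc, and their part in its level was not tested.

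**Figure D5:**
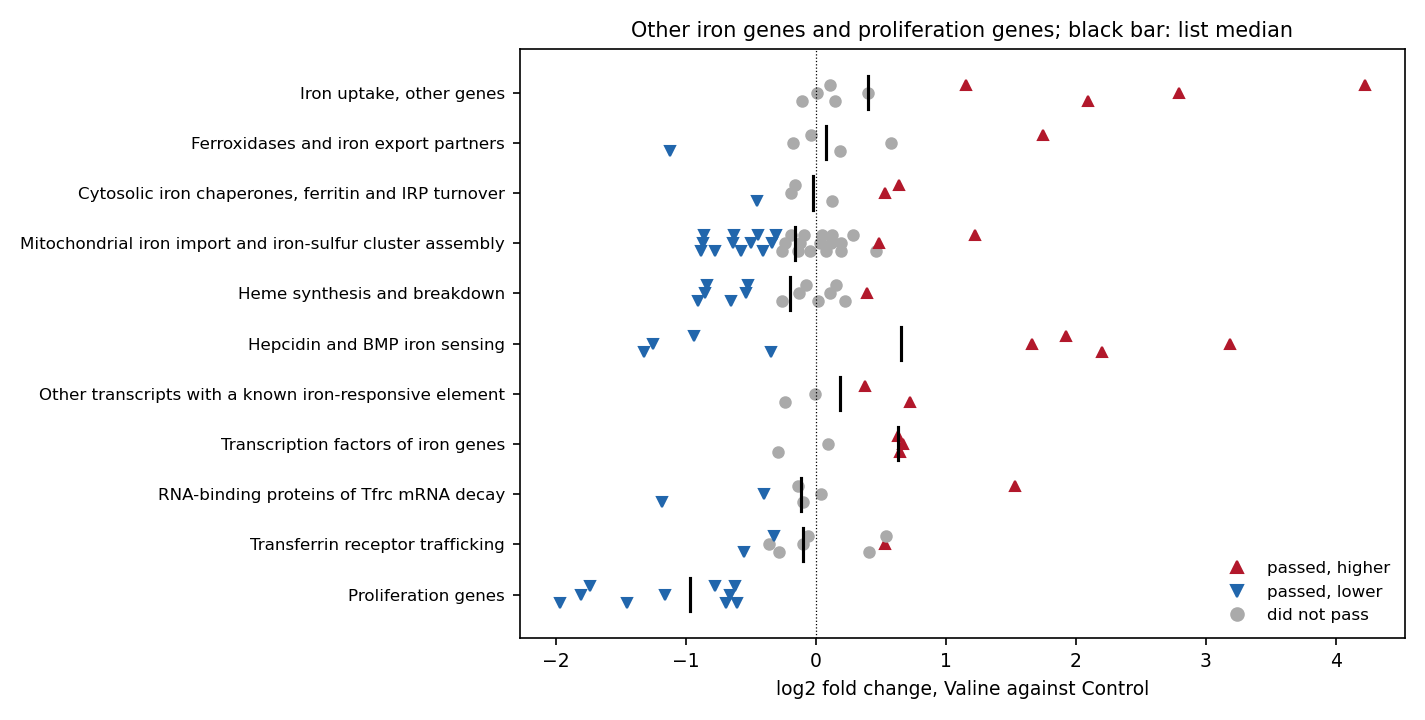
Log2 fold changes of the tested genes in 11 lists around the 10 iron genes, Valine against Control, 1 symbol per gene and 1 row per list; upward and downward triangles passed an edgeR adjusted p of 0.05 as higher and lower in Valine, grey circles did not pass, and a black bar marks the list median. All 10 proliferation genes lie left of 0, with a median of −0.96, and the 4 uptake genes that passed lie right of 0.

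Between Val+PA and Valine, genes of these lists had small p-values without passing the adjustment. Smad7, an inhibitor of BMP signalling, averaged 23.2 ± 4.52 CPM in Val+PA and 15.3 ± 0.855 CPM in Valine, a log2 fold change of 0.60 (edgeR adjusted p = 0.197). The heme transporter Slc48a1 averaged 83.0 ± 4.90 CPM in Val+PA and 67.1 ± 3.53 CPM in Valine, a log2 fold change of 0.31 (edgeR adjusted p = 0.301). Glrx5, of the cluster machinery, averaged 22.6 ± 5.45 CPM in Val+PA and 14.4 ± 1.07 CPM in Valine, a log2 fold change of 0.66 (edgeR adjusted p = 0.336). Mki67, a marker of dividing cells, averaged 41.6 ± 3.11 CPM in Val+PA and 61.5 ± 4.07 CPM in Valine, a log2 fold change of −0.56 (edgeR adjusted p = 0.192). All 4 passed when Val+PA 2 and Control 3 were left out (edgeR adjusted p = 0.00217 to 0.0392). With all 9 libraries, Smad7 and Mki67 also passed in DESeq2 (DESeq2 adjusted p = 0.0189 and 0.00762). When the filter was left out, Smad7, Mki67 and Glrx5 passed with all 9 libraries (edgeR adjusted p = 0.00837, 0.0047 and 0.00359). In the remaining lists the smallest p belonged to Slc46a1 (log2 fold change 0.48), Cp (−0.26), Pcbp2 (−0.26), Pfn2 (−0.27), Myc (0.33), Zc3h12a (0.42) and Ehd1 (0.34), with edgeR adjusted p of 0.342 to 0.478.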

How the data were processed

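Libraries were strand-specific and sequenced as paired ends from total RNA, per the labels' protocols. Per the submitters' processing notes, HISAT2, featureCounts, DESeq2 and the build GRCm38 were used; how strand was set in counting, and on which annotation, is not given in the sources used here. Counts per gene were deposited as whole numbers without normalization. The deposited normalized table holds a signal equal to each count times a gene factor, which follows exon length, and a factor per library made by the authors; it served only as an alternative. Symbols and places came from GENCODE M21, which matched 52147 IDs (97.1%).

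After TMM scaling, edgeR 4.0.16 (R 4.3.3) fitted the counts by quasi-likelihood over all 9 libraries with group as the only term, after filterByExpr. Tests were two-sided, with Benjamini-Hochberg adjustment over 18415 genes at 0.05. SE values were derived from the log2 fold change and the F statistic of its test. The script was tested on simulated data. The 10 genes, the 11 lists and the marker lists were chosen with earlier results of these data known. Named list genes are, for Valine against Control and Val+PA against Valine, the largest called rise and fall with a mean of at least 2 CPM, or the smallest p where none was called; Fbxl5, Cdc42bpa, Tfr2, Steap4 and Slc22a17 were named after their values were seen. One gene that this rule names is not reported here. Alternatives were DESeq2 1.42.0, limma-voom (limma 3.58.1), other scalings and filters, a replicate block, leaving out libraries, a threshold of 0.01 and the signal on a log2 scale.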

Additional observations from a re-analysis of the deposited data

How the results depend on the processing

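Across 21 alternative settings, 607 of 630 values for the 10 iron genes kept their direction and their side of the threshold, and so did 576 of 609 for named list genes. Between Val+PA and Valine, where no gene was called, leaving out the filter gave 1 of the 10 iron genes, 8 list genes and 763 genes in all. DESeq2 gave 5 list genes and 212 genes in all. Leaving out Val+PA 2 and Control 3 together gave 2 iron genes, 14 list genes and 604 genes in all; the cause was not tested. At a threshold of 0.01, 5092 genes passed between Valine and Control, fewer by construction than the 7718 at 0.05.

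Leaving out 1 library at a time gave 6043 to 7863 genes between Val+PA and Control, with 43 to 58 list genes and 6 to 7 iron genes. It gave 5796 to 9244 genes between Valine and Control, with 43 to 66 list genes and 7 to 9 iron genes, and 0 of each between Val+PA and Valine. Ireb2 lost its call between Valine and Control in 9 settings, among them any Control or Valine library left out. Slc11a2 lost its own without Valine 2. Ireb2 passed between Val+PA and Control without Val+PA 2. The 10 genes were chosen on comparisons with Control, so these changes are a description.

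Reversals, all between Val+PA and Valine and none called, were Fth1 (−0.0224 with library size alone, −0.0277 without Valine 3, −0.000277 without Val+PA 3), Aco1 (−0.000241 with library size alone), Ireb2 (0.0422 without Val+PA 2, 0.0394 without Val+PA 2 and Control 3) and Ncoa4 (0.0471 and 0.0444 in those settings). Leaving out 1 library at a time, Fth1 ran from −0.0277 to 0.0544, Ireb2 from −0.25 to 0.0422 and Ncoa4 from −0.0962 to 0.0471.

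Same-numbered libraries had correlations of −0.409 to 0.238 in their deviations from group means and share only a number. Not every library correlated best with its own number. With a replicate block, 6935 genes passed between Val+PA and Control, 7369 between Valine and Control and 0 between Val+PA and Valine.

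Depth was not limiting for the 10 iron genes, whose lowest group mean was 13.2 CPM; 3 libraries per group and single plates limit precision.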
